A study of Mus musculus with 11 samples.

Results

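The 10 genes described here encode the contractile apparatus by which myofibroblasts are usually recognised: the smooth muscle actins Acta2 and Actg2, the actin-binding proteins Tagln, Cnn1, Tpm1 and Tpm2, the myosin subunits and kinase Myh11, Myl9 and Mylk, and the intermediate filament protein Des. They were chosen by name and by what they encode, with no threshold on a measured value. The choice of these genes and of the comparison lists was made with earlier results of these data known. All 10 were found among the 54232 Ensembl gene identifiers of the count table, and all 10 passed the low-count filter and were among the 16536 genes tested. RNA from 11 orthotopic pancreatic tumors was sequenced in bulk. The tumors grew from 1000 TB32048 cells, a carcinoma line from a female KPC mouse, injected in Matrigel into the pancreas of female C57BL/6 hosts that were 24 to 28 weeks old at the start. All hosts were heterozygous for RosaCreERT2, a tamoxifen-activated Cre recombinase expressed from the Rosa26 locus, and all were given tamoxifen. The 6 KO tumors (A to F) grew in Pkn2 fl/fl hosts, in which tamoxifen deletes Pkn2, the gene of protein kinase N2 (PKN2), and the 5 WT tumors (A to E) grew in Pkn2 +/+ hosts.

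Rosa26 is active in most cell types, so the deletion was neither limited to fibroblasts nor present in the carcinoma cells, which kept an intact Pkn2. Whole-tumor Pkn2 was therefore no check of the genotype: its level was 96.6 ± 9.34 CPM (a gene's counts relative to the library total, TMM-scaled, mean ± SD) in KO tumors (n = 6) and 96.7 ± 34.6 CPM in WT tumors (n = 5). The carcinoma keratin Krt8 was between 773 and 2667 CPM in every tumor, and the fibroblast collagen Col3a1 between 823 and 4262 CPM. Carcinoma markers were not all so even, since Epcam ran from 3.50 to 287 CPM. The mean log2(CPM + 1) of the 10 carcinoma markers examined was 5.56 in WT B and 6.69 to 8.03 in the other tumors. In bulk RNA, fewer cells of a type and less RNA per cell cannot be told apart. Each tumor was a separate animal, but only a portion of each was sequenced.

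In a myofibroblast, alpha-smooth muscle actin (Acta2) is built into stress fibers with tropomyosin (Tpm1, Tpm2), calponin (Cnn1) and transgelin (Tagln), and is pulled on by myosin II. Phosphorylation of the regulatory light chain (Myl9) by myosin light chain kinase (Mylk) switches this motor on, and many of these genes are transcribed through serum response factor (SRF) and its MRTF cofactors. The same genes are used by the smooth muscle of vessel walls and by pericytes. Myh11, Cnn1 and Actg2 mark mature smooth muscle more narrowly than Acta2 and Tagln do, and Des and Tpm2 are also abundant in skeletal muscle. The comparison asks whether loss of PKN2 in the host goes with a different level of this program in the tumor as a whole.

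SRF binds the CArG box, and TEAD factors, the partners of YAP, bind the MCAT motif CATTCC. These motifs are shown because the study measured transcription driven by both factors. RefSeq start sites with the 250 bases before them (GRCm38.p6) were at hand for 7 members: Acta2, Myl9, Cnn1, Tpm1, Tpm2, Des and Mylk. A perfect CArG box (CC, then 6 letters that are each A or T, then GG) was found in 1 of these 7, Myl9, and in 1.47% of the 32851 promoters. A CArG-like box, in which exactly 1 of the 6 middle letters is C or G, was found in 2 of the 7, Acta2 and Myl9, and in 7.24% of promoters. Both forms read the same way on either strand. The MCAT motif, searched on both strands, was found in 3 of the 7, Acta2, Tpm1 and Mylk, and in 12.6% of promoters. The matches are printed 5′ to 3′ on the strand of the gene with 20 bases on each side, and the capitals mark the CArG, CArG-like or MCAT match.
Myl9, perfect CArG box, plus strand, chr2:156775283-156775332: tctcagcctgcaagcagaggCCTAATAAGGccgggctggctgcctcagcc
Myl9, CArG-like, plus strand, chr2:156775345-156775394: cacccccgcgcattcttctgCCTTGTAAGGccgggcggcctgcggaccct
Acta2, CArG-like, minus strand, chr19:34255428-34255477: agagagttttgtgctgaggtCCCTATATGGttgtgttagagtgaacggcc
Acta2, CArG-like, minus strand, chr19:34255378-34255427: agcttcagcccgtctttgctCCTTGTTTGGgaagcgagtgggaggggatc
Acta2, MCAT, minus strand, chr19:34255494-34255539: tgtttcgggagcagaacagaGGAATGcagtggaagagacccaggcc
Tpm1, MCAT, minus strand, chr9:67049244-67049289: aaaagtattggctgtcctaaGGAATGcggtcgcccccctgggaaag
Mylk, MCAT, plus strand, chr16:34784772-34784817: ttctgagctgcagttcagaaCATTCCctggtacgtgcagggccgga
The CArG and CArG-like boxes of Acta2 and Myl9 began between 161 and 34 bases before the start, and the MCAT matches between 158 and 56 bases before it. A single RefSeq start was used for each gene. The printed windows of Acta2, Tpm1 and Mylk lie inside the span given for the gene below, whose annotated start is further upstream. A match of letters is a description of the window and not a measured binding site.

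Libraries held 16294128 to 31121422 counts, and 3 libraries stood apart from the rest, all of them WT. The share of counts on ribosomal RNA genes was 6.39% in WT B, 1.40% in WT C and 1.31% in WT A, and 0.241% to 0.765% in the other 8. In these 3 libraries genes with long exon sequence also had relatively low levels. The rank correlation between a gene's exon length and its level relative to the other tumors was -0.50 in WT A, -0.46 in WT B and -0.18 in WT C, and 0.12 to 0.41 in the others. WT A also held RNA of skeletal muscle. All 14 skeletal muscle markers examined were highest in WT A, where their summed level was 327 CPM. It was 16.7 to 33.8 CPM in the other 4 WT tumors and 10.1 to 15.7 CPM in KO tumors. Outside WT A much of the sum could be 1 marker, Tnni2. This gene was at 24.9 of 32.2 CPM in WT B, 24.3 of 33.8 in WT C, 8.44 of 15.7 in KO A and 3.26 of 11.2 in KO F. Results are therefore also given without WT A and WT B, an alternative chosen after seeing the data.

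Per length of exon sequence, averaged over all 11 tumors, the most abundant members were Tagln at 123 ± 82.4 CPM per kb, Tpm1 at 103 ± 21.9 and Acta2 at 86.8 ± 38.6. Next came Tpm2 (47.2 ± 20.7), Myl9 (30.1 ± 12.1), Actg2 (16.2 ± 15.1), Des (9.42 ± 4.69), Mylk (8.68 ± 2.58), Cnn1 (2.65 ± 2.58) and Myh11 (0.967 ± 0.461 CPM per kb). Of the narrower markers of mature smooth muscle, Cnn1 and Myh11 stood at the bottom of the order and Actg2 in its middle. Among neighbours in this order, Tagln exceeded Tpm1 in 6 of 11 tumors and Des exceeded Mylk in 5 of 11, so that these pairs were not separated. In the other 7 neighbouring pairs the higher gene led in 9 to 11 of the 11 tumors. Exon length is that of all annotated isoforms joined, which understates the level per length of Tpm1 and Mylk, genes with many isoforms and internal starts.

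No contractile gene differed between KO and WT tumors at an adjusted p under 0.05. edgeR's quasi-likelihood test called 0 of the 10 members, where it called 3 of all 16536 genes (0.0181%). At an unadjusted p under 0.05, 1 member, Actg2, was lower in KO tumors, against 15.5% of all genes, and 0 members were higher, against 8.57% of all genes. Over all genes these were 1417 higher and 2555 lower, while limma on log2(CPM + 0.5) gave 1819 higher and 1843 lower. DESeq2 and limma also called 0 of 10 after adjustment. Fitted differences were below 0 for 8 members and above 0 for Myh11 and Mylk, with a median of -0.32 (log2, KO minus WT) over the members and -0.03 over all genes tested. This count turned under 2 alternatives: with the ribosomal RNA share of each library as a covariate 3 members were below 0 and 7 above (median 0.13), and without WT A and WT B 4 were below and 6 above (median 0.05). The values of the 2 groups overlapped for all 10 members, whereas they did not overlap for 3.6% of genes. A share of calls near that of all genes is no result about these members. An adjusted p above the threshold does not show that the groups were alike, and the standard errors beside each gene give the size of difference that these tumors leave possible.

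**Figure D1:**
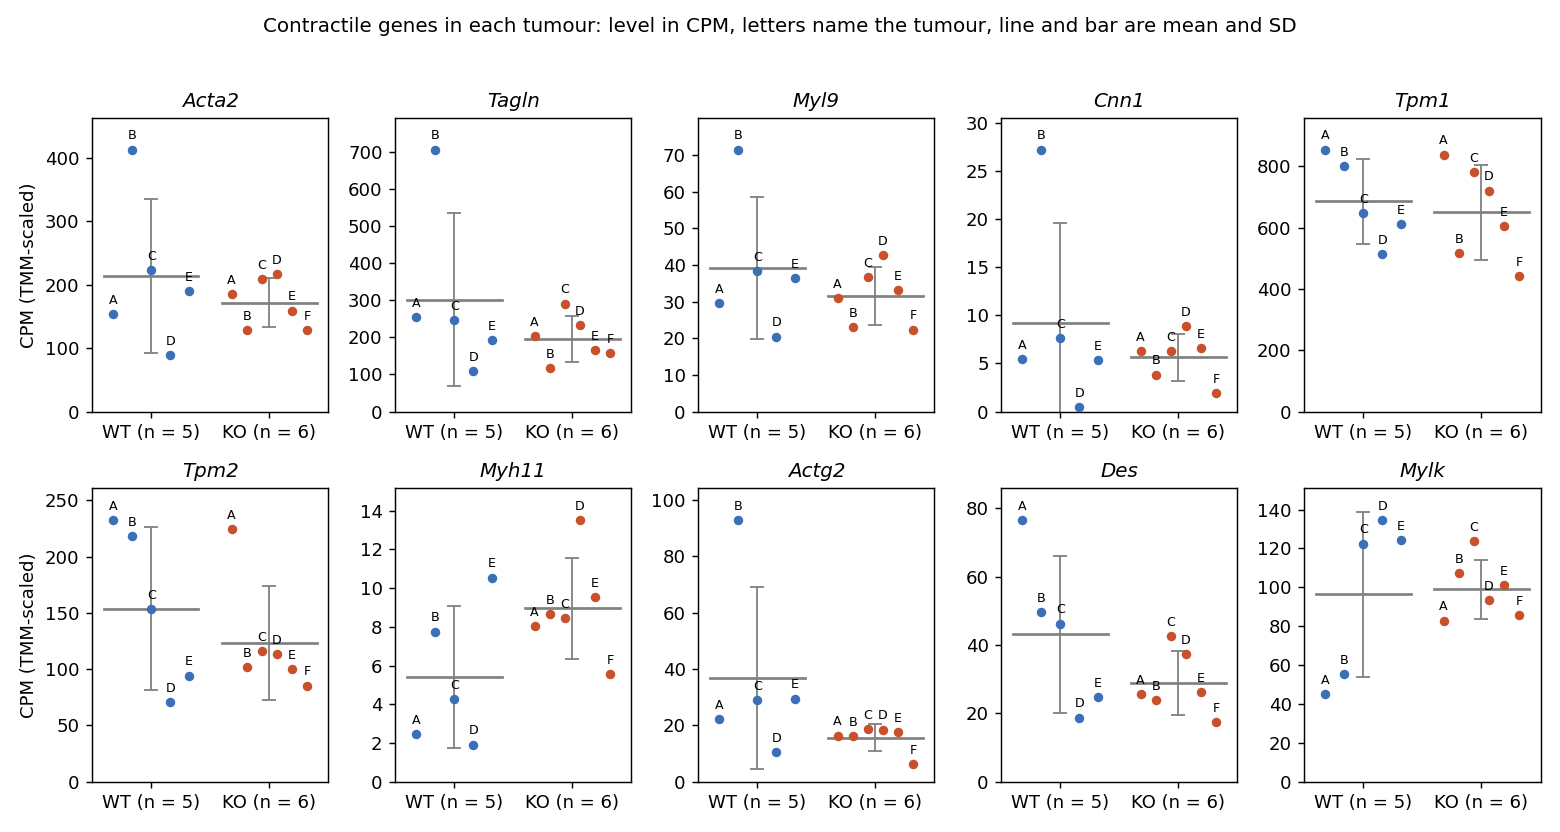
Level of each contractile gene in CPM (linear axis from 0) in the 5 WT and 6 KO tumors, with letters naming the tumor and lines and bars giving the mean and SD (the SD bar of Cnn1 in WT reaches below 0 and is cut off there). WT B is the highest of all tumors for Acta2, Tagln, Myl9, Cnn1 and Actg2, and the KO and WT points overlap in all 10 panels.

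Among the actins, Acta2 (chr19:34241090-34255590, GRCm38), the standard myofibroblast marker, was at 153, 413, 223, 89.4 and 190 CPM in WT A to E. KO tumors lay between 128 and 216 CPM with a median of 172. All 6 KO values thus fell inside the WT range, which WT D and WT B set at its low and high ends. The means were 171 ± 38.6 CPM in KO (n = 6) and 214 ± 122 CPM in WT (n = 5), and the fitted log2 difference was -0.32 ± 0.32 (SE; edgeR, adjusted p = 0.55). Without WT A and WT B it was 0.02 ± 0.28.

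Actg2 (chr6:83512905-83536265), the gamma-smooth muscle actin of visceral muscle, showed the largest fitted difference of the 10. It was at 22.2, 93.0, 28.8, 10.6 and 29.5 CPM in WT A to E and between 6.21 and 18.7 CPM in KO tumors, with a KO median of 16.9. WT A, B, C and E were above all 6 KO tumors, and WT D lay between KO F and the other KO tumors. The log2 difference was -1.24 ± 0.46 (edgeR, unadjusted p = 0.018, adjusted p = 0.14). WT B carried part of this difference, since without it the log2 difference was -0.54 ± 0.33 and without both WT A and WT B it was -0.57 ± 0.37. Actg2 was lower in KO under every alternative run, by 0.54 to 1.47 on the log2 scale, and its adjusted p ranged from 0.053 (without WT D) to 0.77. The ribosomal RNA share of WT B moves with its high Actg2, and the part of one in the other was not tested beyond the fit with that share as a covariate (-0.55 ± 0.41).

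Of the actin-binding proteins, Tagln and Cnn1 had the same highest and lowest tumors as Acta2. Tagln (chr9:45929619-45936058), the transgelin that bundles actin in smooth muscle and activated fibroblasts, was at 255, 707, 246, 109 and 193 CPM in WT A to E and between 117 and 291 CPM in KO tumors (median 185). The KO tumors again lay within the range set by WT D and WT B. Its log2 difference was -0.63 ± 0.40 (adjusted p = 0.34) with all tumors, -0.04 ± 0.28 without WT B and 0.08 ± 0.31 without WT A and WT B. Pcsk7 and Gm48529 overlap 1349 exon bases of Tagln on the opposite strand. The libraries were directional, but the strand setting of the counting is not given in the sources used here, so that reads of these genes may not have been kept apart.

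Cnn1 (chr9:22099216-22109630), calponin, which restrains actomyosin in smooth muscle, was the most variable member. It was at 5.47, 27.2, 7.67, 0.470 and 5.32 CPM in WT A to E and at 1.89 to 8.86 CPM in KO tumors, so that the extremes of the 11 tumors, WT B and WT D, differed 57.9-fold. The lowest value rested on 12 counts. The log2 difference was -0.70 ± 0.68 (adjusted p = 0.54), and 0.32 ± 0.68 without WT A and WT B.

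Of the tropomyosins, which line the actin filament and set its access to myosin, Tpm1 (chr9:67022590-67049406) was the steadiest member. It was at 855, 801, 647, 514 and 613 CPM in WT A to E and between 443 and 838 CPM in KO tumors (median 663), with a log2 difference of -0.08 ± 0.21 (adjusted p = 0.85). Tpm2 (chr4:43514711-43523765) was at 233, 218, 154, 70.5 and 94.3 CPM in WT A to E. In KO tumors it was between 85.4 and 116 CPM except in KO A, at 224 CPM. Its highest values were thus shared by 2 WT tumors and 1 KO tumor, and the log2 difference was -0.32 ± 0.33 (adjusted p = 0.57). It was -0.57 ± 0.30 without KO A, -0.12 ± 0.34 without WT A and -0.16 ± 0.34 without WT B. Acta1, the skeletal muscle actin, was at 4.03 CPM in KO A and at 0.244 to 0.806 CPM in the other KO tumors. In KO A the summed level of the 14 skeletal muscle markers, 15.7 CPM, was the highest of the KO tumors, but Tnni2 held 8.44 CPM of it. The markers did not move together there. Acta1 and Myh1 (1 count) were highest in KO A among KO tumors. Tnnt3 and Myl1 (0.070 CPM each), Ttn (0.140 CPM) and Neb (0.385 CPM) were lowest in it. The part of skeletal muscle RNA in the Tpm2 level of KO A was not tested.

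The myosin genes differed in the direction of their values. Myh11 (chr16:14194535-14291372), the smooth muscle myosin heavy chain, was the member with the largest difference above 0. It was at 2.47, 7.76, 4.28, 1.92 and 10.6 CPM in WT A to E and between 5.56 and 13.5 CPM in KO tumors (median 8.56). WT A, C and D were below all KO tumors, and WT E was above all of them but KO D. The log2 difference was 0.73 ± 0.41 (edgeR, unadjusted p = 0.10, adjusted p = 0.29). It was above 0 under every alternative, from 0.48 to 1.15, with adjusted p-values from 0.074 (without WT E) to 0.73. Under limma, on the deposited normalised values or on log2 CPM, it was Myh11 and not Actg2 that had an unadjusted p under 0.05.

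Myl9 (chr2:156775420-156781658), the regulatory light chain of smooth muscle and non-muscle myosin, was at 29.5, 71.4, 38.3, 20.4 and 36.4 CPM in WT A to E and between 22.4 and 42.7 CPM in KO tumors. Its profile ran close to that of Acta2, with the same highest and lowest tumors, and its log2 difference was -0.32 ± 0.29 (adjusted p = 0.51) or -0.02 ± 0.26 without WT A and WT B. Mylk (chr16:34745210-35002420), the kinase that phosphorylates it, was at 45.0, 55.2, 122, 135 and 124 CPM in WT A to E and between 82.9 and 124 CPM in KO tumors (median 97.2). The KO tumors lay between a low pair (WT A, WT B) and a high pair of WT values (WT D, WT E), with WT C inside the KO range, and the log2 difference was 0.04 ± 0.27 (adjusted p = 0.94). Without WT A and WT B, the libraries with the lowest levels of long genes, it was -0.37 ± 0.14 (unadjusted p = 0.025, adjusted p = 0.31). Mylk has the longest exon sequence of the members, 11263 bases, and with an offset for each tumor's length trend its log2 difference was -0.15 ± 0.19.

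Des (chr1:75360329-75368579) encodes desmin, the intermediate filament of muscle and of pancreatic stellate cells. It was at 76.7, 49.6, 46.3, 18.7 and 24.8 CPM in WT A to E and between 17.4 and 42.5 CPM in KO tumors (median 26.0). WT A, B and C were above all KO tumors, whereas WT D and WT E were among them. The log2 difference was -0.58 ± 0.34 (adjusted p = 0.30), -0.27 ± 0.31 without WT A and -0.06 ± 0.33 without WT A and WT B. The highest tumor, WT A, was the one with skeletal muscle RNA. There Acta1 was at 89.5 CPM, Tnnt3 at 37.8, Ckm at 29.7, Tnnc2 at 24.9 and Pvalb at 14.1 CPM, whereas 9 of the 14 markers stayed under 1 CPM in all 10 other tumors. The part of this RNA in the Des level of WT A was not tested.

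**Figure D2:**
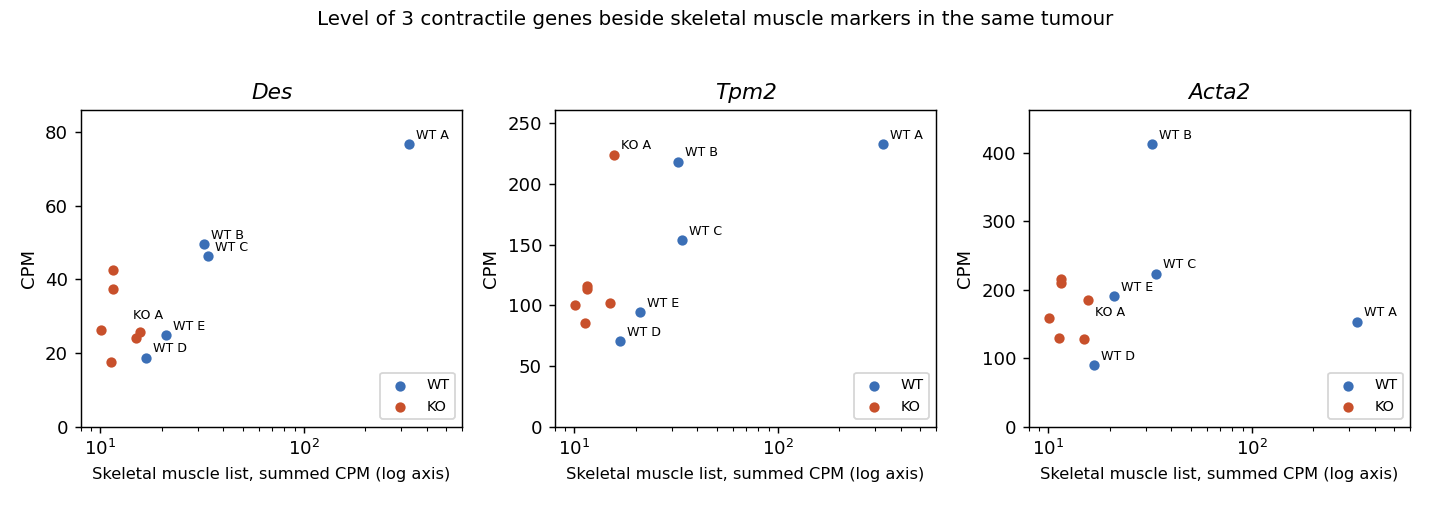
Level in CPM of Des, Tpm2 and Acta2 (vertical axes) against the summed CPM of the 14 skeletal muscle markers in the same tumor (log axis), for 5 WT and 6 KO tumors. WT A, at a summed marker level of 327 CPM, has the highest Des (76.7 CPM) and Tpm2 (233 CPM) but not a high Acta2 (153 CPM). KO A has a Tpm2 of 224 CPM with a summed marker level of 15.7 CPM, of which Tnni2 is 8.44 CPM.

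Across tumors the SD within the WT group exceeded the difference between the group means for all 10 members. WT B was above the mean of the 11 tumors on the log2(CPM + 1) scale for 9 of 10 members and was the highest tumor for 5, whereas WT D was below the mean for 9 and the lowest for 6. Both were WT, and their median deviations over the members were 0.94 and -0.85. KO F was below the mean for 10 of 10 members, with a median deviation of -0.55, and had the lowest Tpm1, Actg2 and Des of all tumors. The exceptions were Mylk, which was low in WT B and highest in WT D, and Myh11, which was highest in KO D.

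**Figure D3:**
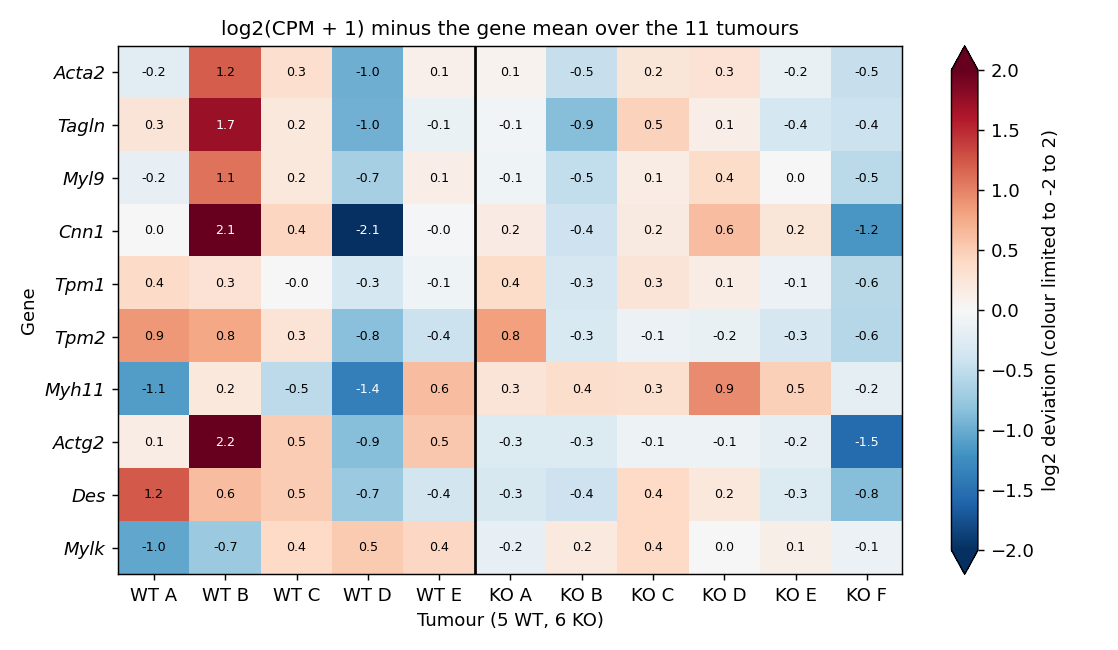
Heat map of log2(CPM + 1) minus the mean of each gene over the 11 tumors, with genes in rows, the 5 WT and 6 KO tumors in columns and a line between the groups. The column of WT B is above 0 for 9 genes, with 0.94 as its median, the column of WT D is below 0 for 9, with -0.85 as its median, and KO F is below 0 for all 10.

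In order of exon length, the 3 members with the longest exon sequence, Mylk, Myh11 and Tpm1, had the 3 highest log2 differences, and Actg2, at 1557 bases the second shortest, had the lowest. Other members did not follow this order: Myl9, with the shortest exon sequence (1162 bases), had the 4th highest difference, and Des, the 4th longest, the 7th highest. The 3 libraries in which long genes were low were all WT. With an offset for the length trend of each tumor, Myh11 was at 0.54 ± 0.40 and Actg2 at -0.78 ± 0.38, the latter with an unadjusted p of 0.061 in place of 0.018 (edgeR). The offset also took Acta2 to -0.06 ± 0.27, Tagln to -0.28 ± 0.32 and Tpm1 to -0.27 ± 0.25, while the sign of Myl9 (0.13 ± 0.23) and of Mylk turned. The part of exon length in the difference of any member was not tested beyond this fit.

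**Figure D4:**
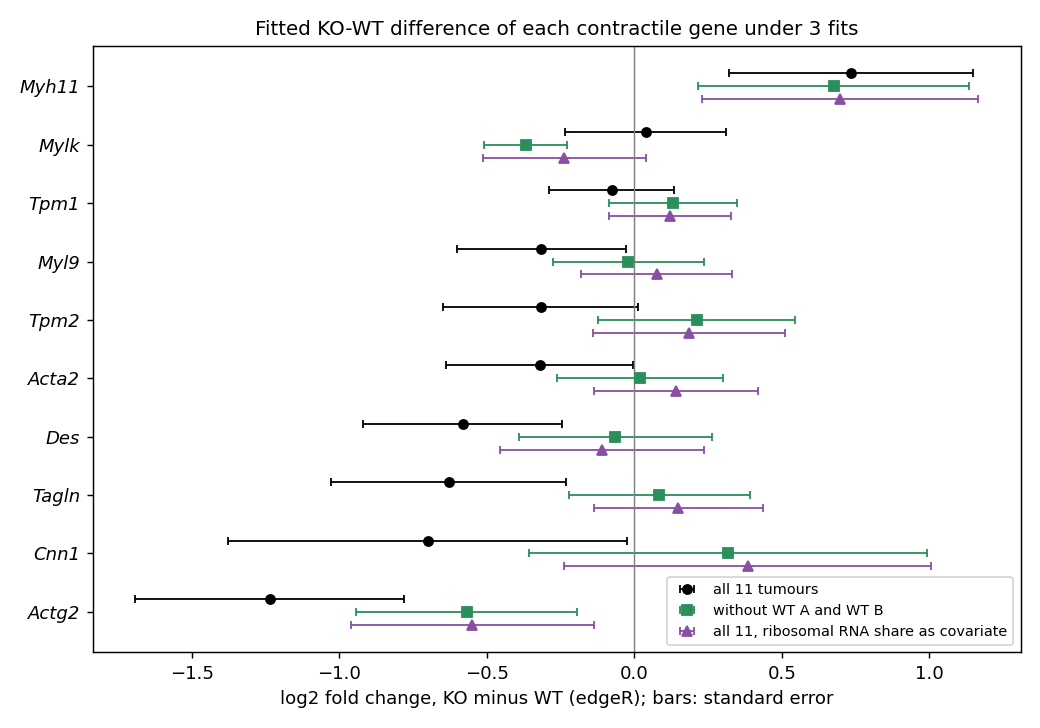
Fitted log2 difference (KO minus WT, edgeR) with its standard error for each contractile gene, with all 11 tumors (black), without WT A and WT B (green) and with the ribosomal RNA share of each library as a covariate (purple). Actg2 stays below 0 and Myh11 above 0 in all 3 fits, whereas Acta2, Tagln, Cnn1, Tpm1 and Tpm2 turn from below to above 0 in both others.

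The composition of the program was described by setting each member against Acta2 within the same tumor, per length. Actg2 was at 20.4%, 31.8%, 18.2%, 16.7% and 21.8% of the Acta2 level in WT A to E (21.8 ± 5.91%) and at 12.4%, 17.9%, 12.6%, 12.1%, 15.5% and 6.79% in KO A to F (12.9 ± 3.75%). WT A, B, C and E were above all KO tumors and only KO B was above WT D. Myh11 was at 0.466%, 0.543%, 0.553%, 0.621% and 1.60% in WT A to E and at 1.17% to 1.95% in KO tumors (0.757 ± 0.475% in WT and 1.53 ± 0.342% in KO). WT A to D were thus below all KO tumors, and WT E was among them. These 2 ratios lean opposite ways, with a lower mean for Actg2 and a higher mean for Myh11 in KO tumors. The genes differ in exon length, at 7599 bases for Myh11, 2196 for Acta2 and 1557 for Actg2. WT A, B and C were the libraries in which long genes were low. The part of exon length in these ratios was not tested. The differences in ratio were not tested, since these pairs were singled out after seeing the values. Of the other members, Myl9 held the closest ratio to Acta2, at 31.6% to 39.3% in KO and 32.4% to 43.2% in WT tumors.

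**Figure D5:**
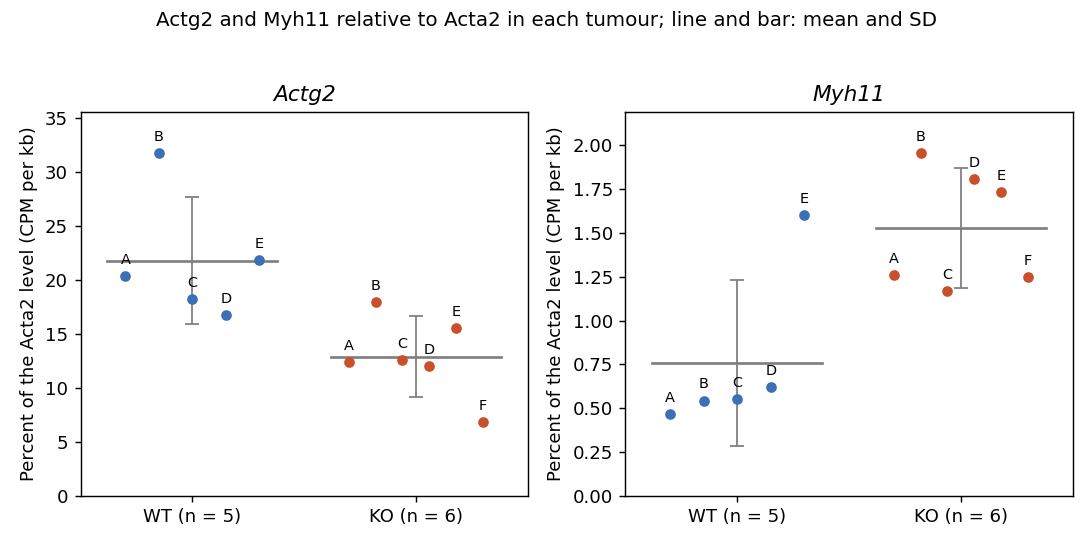
Actg2 (left) and Myh11 (right) as a percent of the Acta2 level in the same tumor, both in CPM per kb of exon, with letters naming the tumor and lines and bars giving mean and SD. For Actg2, 4 of 5 WT tumors lie above all KO tumors, and for Myh11, 4 of 5 WT tumors lie below all KO tumors. WT A, B and C are the libraries in which long genes were low, and Myh11 is longer and Actg2 shorter than Acta2.

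The genes that followed the members most closely over the 11 tumors were sought among 14888 tested genes with a mean of at least 1 CPM. Acta2 was closest to its fellow member Myl9 (Pearson r = 0.97, Spearman rank correlation 0.97 on log2(CPM + 1)). Outside the list it was closest to Arhgef25, a guanine nucleotide exchange factor (r = 0.96), to Kdelr3, a receptor for endoplasmic reticulum retention (r = 0.94), and to Gm17383 (r = 0.91). Without the extreme tumors WT B and WT D these were 0.94 for Myl9, 0.87 for Arhgef25, 0.71 for Kdelr3 and 0.80 for Gm17383. Myh11 instead ran with Smtn, the smooth muscle protein smoothelin (r = 0.94), Angptl2 (r = 0.94) and the matrix gene Fbln2 (r = 0.90), and its closest fellow member was Cnn1 (r = 0.52). Without WT A and WT D, the extreme tumors for Myh11, these were 0.82 for Smtn, 0.85 for Angptl2, 0.72 for Fbln2 and 0.17 for Cnn1. Tpm1 ran with Cct2, a subunit of the chaperonin that folds actin (r = 0.87), Cgref1 (r = 0.86) and Plpp2 (r = 0.86), and with Tpm2 (r = 0.83). Without its extreme tumors, WT A and KO F, these were 0.89, 0.85, 0.72 and 0.80. All points share the libraries and their coverage, so these are descriptions of likeness only.

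Other genes of differentiated smooth muscle ranged from undetected to abundant. Of 15, 13 were tested, with a median log2 difference of 0.16. That median was -0.017 without WT A and WT B, -0.011 with the exon length offset and 0.039 with the ribosomal RNA covariate. Over all genes, 8.57% were higher in KO at an unadjusted p under 0.05 and 15.5% lower. Of the 13, 1 was higher and 0 were lower. The higher one was Itga8, an integrin of contractile mesenchymal cells, with 2.04 ± 0.694 CPM in KO tumors against 0.715 ± 0.340 CPM in WT tumors (log2 difference 1.49 ± 0.41, adjusted p = 0.093). Smtn (61.2 CPM in KO and 54.6 in WT, log2 difference 0.16 ± 0.17) and the abundant actin-binding Cald1 (267 and 258 CPM, 0.05 ± 0.23) differed by less than their error. Myocd, the cofactor that drives SRF in smooth muscle, was detected with at most 3 counts in any tumor (0.122 CPM) and was at 0 in all 5 WT tumors, and Pln, a calcium pump regulator of mature muscle, had at most 2 counts. Of the 10 pericyte markers, which bear on Acta2 as pericytes share it, 0 were higher and 1 was lower. It was Ndufa4l2 (log2 difference -1.54 ± 0.44, adjusted p = 0.096), while Rgs5 was at 0.25 ± 0.36 and Pdgfrb at 0.39 ± 0.27. The summed pericyte level was 267 to 346 CPM in KO and 167 to 448 CPM in WT tumors.

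Genes of the transcriptional program and paralogues of the members had differences in both directions, none past the adjusted threshold. At an unadjusted p under 0.05, 8.57% of all genes were higher in KO and 15.5% lower. Of 14 genes of SRF, its MRTF partners and widely expressed SRF targets, 1 was higher and 1 lower at that threshold. The lower was Fhl2, a LIM-domain coactivator, at 41.2 to 58.1 CPM in KO and 61.8 to 92.9 CPM in WT tumors (log2 difference -0.68 ± 0.14, adjusted p = 0.077). Its groups did not overlap, which held for 3.6% of all genes. The higher was the actin cross-linker Flna (0.80 ± 0.25, adjusted p = 0.11). Actb (-0.45 ± 0.27) and Actg1 (-0.16 ± 0.16), the cytoplasmic actins, were far more abundant than Acta2 and overlapped between groups. Of 15 paralogues of the members that were tested, 1 was higher and 2 were lower at an unadjusted p under 0.05. Higher was the non-muscle myosin heavy chain Myh10 (0.74 ± 0.29, adjusted p = 0.16). Lower were the regulatory light chain Myl12a (-0.62 ± 0.28, adjusted p = 0.20) and Acta1, the latter with its highest level in WT A. The abundant Vim was at -0.25 ± 0.20.

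The matrix genes of myofibroblastic fibroblasts had fitted differences above 0 in 11 of 12, with a median log2 difference of 0.51. Of all 16536 genes tested, 7943 were above 0. The list was chosen with earlier results of these data known, so its counts are a description only. At an unadjusted p under 0.05, 4 of the 12 were higher in KO tumors and 0 were lower. Over all genes 8.57% were higher and 15.5% lower. Without WT A and WT B, 8 of the 12 were above 0 (median 0.45) and 2 were higher at an unadjusted p under 0.05. Over all 17031 genes of that fit, 7892 were above 0 and 1111 were higher at that threshold. With the exon length offset 10 were above 0 (median 0.38) and 3 were higher, against 7940 and 1514 of all 16536 genes. No test compared this list with the contractile genes. With all tumors the 4 were the cell adhesion gene Cdh11 (0.92 ± 0.29), the matricellular Tnc (1.08 ± 0.38) and Thbs2 (0.95 ± 0.37) and fibronectin, Fn1 (0.77 ± 0.35), with adjusted p-values between 0.11 and 0.20. Ctgf, a YAP target, was at 0.44 ± 0.47. General fibroblast markers were higher for 1 of 12 (Fbln1, 0.66 ± 0.27), with Col3a1 at 0.78 ± 0.38. The summed fibroblast level was 6633 to 11627 CPM in KO and 5058 to 11406 CPM in WT tumors. With the mean log2(CPM + 1) of the 12 fibroblast markers as a covariate, the difference of Acta2 was -0.44 ± 0.34 (edgeR, adjusted p = 0.49). That of Actg2 was -1.30 ± 0.49 (adjusted p = 0.24).

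Markers of the other cells in the tumor also varied between tumors. At an unadjusted p under 0.05, 15.5% of all genes were lower in KO and 8.57% higher. Of 10 carcinoma epithelial markers, 3 were lower (Krt18, Krt19 and Epcam, log2 differences -0.54, -0.92 and -1.62). The secreted Lcn2 was higher (180 ± 76.3 CPM in KO tumors against 63.8 ± 27.7 CPM in WT tumors, adjusted p = 0.085). With the exon length offset 0 of the 10 were lower and 2 higher, where 2297 of all 16536 genes were lower and 1514 higher. Without WT A and WT B 5 were lower and 2 higher, where 1263 of all 17031 genes were lower and 1111 higher. The summed level of the 10 was 2823 to 5857 CPM in KO and 3173 to 9532 CPM in WT tumors. The lowest WT value was in WT B, the tumor with the highest Acta2. Of 10 endothelial markers 1 was higher (Erg) and 1 lower (Egfl7), and of 6 mesothelial markers 0 passed in either direction, with Msln at -0.12 ± 0.31 and Nkain4 at 0.45 ± 0.47. Of the 6 skeletal muscle markers that were tested, 4 were lower in KO (Tnni2, Acta1, Mylpf and Myl1), against 15.5% of all genes, and 0 higher. Without WT A and WT B, 7 were tested, 1 was lower and 5 were above 0 (median 0.27). Tnni2 differed from the rest of that list. It was at 13.4 to 42.7 CPM in WT and 3.26 to 10.1 CPM in KO tumors (log2 difference -1.87 ± 0.33, adjusted p = 0.066). Its groups did not overlap, which held for 3.6% of all genes. The part of these cell types in the levels of the contractile genes was not tested.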

How the data were processed

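Bulk RNA-seq of 11 tumors (6 KO, 5 WT) was used; groups and replicate letters were taken from the sample titles. Per the labels and the study's methods, the authors made strand-specific libraries (NEB Next Ultra II directional kit), trimmed reads with Trimmomatic, aligned them with HISAT2 (2.1.0) to GRCm38 and counted uniquely aligned reads over exons with HTSeq (0.11.2). They deposited raw counts per gene in whole numbers. The deposited normalised values are a signal, each raw count divided by a DESeq2 size factor per tumor. Here, 54079 of 54232 identifiers were matched to symbols in GENCODE M21.

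Counts were tested with edgeR (4.0.16, R 4.3.3): TMM, filterByExpr, quasi-likelihood F-test, no covariates, Benjamini-Hochberg over 16536 genes. The standard error of a fold change was its absolute log2 value over the root of F. The fits were tested on simulated counts with a single dispersion for all genes and no length or ribosomal RNA differences between libraries. There edgeR recovered 20 of 100 genes with a log2 change of 1 in either direction, and 97 of 100 with a change of 2. Alternatives were DESeq2 (1.42.0), other normalisations and filters, a replicate block, covariates, limma (3.58.1) with pseudocounts of 0.5, 1 and 5, and leaving out tumors. The members and lists were chosen with earlier results of these data known. Named genes are the members, Pkn2, the most abundant 2 of each list, up to 4 per list with the smallest unadjusted p under 0.05, and the 3 genes most like Acta2, Myh11 and Tpm1. Skeletal muscle genes beyond that rule, Myocd, Pln and Krt8 were chosen after their values were seen. Every pair of libraries differed by more than sampling noise. At these depths 3 counts correspond to 0.0964 to 0.184 CPM. Promoter sequences are RefSeq's (GRCm38.p6). Of the gene lists examined, 1 is not reported here.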

Additional observations from a re-analysis of the deposited data

Results flagged for a closer look

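In 42 groups of values (10 members and 11 lists, each in KO and in WT tumors, on the log2 scale), 3 had a tumor far from the others of its group, where about 2.1 would be flagged by chance. Tpm2 in KO A was at 224 CPM against 85.4 to 116 CPM in the other 5 KO tumors. Actg2 in KO F was at 6.21 CPM against 16.3 to 18.7 CPM in the other KO tumors, and without KO F the Actg2 difference was -1.07 (edgeR, unadjusted p = 0.034, adjusted p = 0.22). The summed skeletal muscle markers in WT A were at 327 CPM against 16.7 to 33.8 CPM in the other WT tumors.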

How the results depend on the processing

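No member passed the adjusted threshold in any of the 24 alternatives, and 213 of the 240 fitted differences kept their sign. Actg2 and Des (below 0) and Myh11 (above 0) kept it throughout. At an unadjusted p under 0.05 (edgeR), 0 members passed without WT B, with the ribosomal RNA covariate or with the exon length offset. Without WT D, 3 passed, all of them lower in KO (Actg2, Tagln and Des). Over all 16830 genes of that fit, 1875 were higher and 3044 lower. Without WT E, 2 passed, Actg2 lower and Myh11 higher. Over all 16731 genes of that fit, 2171 were higher and 3196 lower. Leaving out 1 tumor thus gave 0 to 3 members.

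With a covariate for the ribosomal RNA share, the log2 difference became 0.14 for Acta2, 0.15 for Tagln, 0.076 for Myl9, 0.38 for Cnn1, 0.12 for Tpm1, 0.19 for Tpm2 and -0.24 for Mylk. Without WT A and WT B, it became 0.019 for Acta2, 0.084 for Tagln, 0.32 for Cnn1, 0.13 for Tpm1, 0.21 for Tpm2 and -0.37 for Mylk. The exon length offset turned Myl9 (0.13) and Mylk (-0.15), the fibroblast list as a covariate turned Mylk (-0.046), and limma on the deposited values turned Cnn1 (0.044). Leaving out 1 tumor gave -0.51 to 0.063 for Acta2, -0.47 to 0.017 for Myl9, -1.005 to 0.26 for Cnn1, -0.16 to 0.016 for Tpm1, -0.14 to 0.19 for Mylk, -0.84 to -0.038 for Tagln and -0.57 to -0.12 for Tpm2, with the high ends without WT B for Acta2, Myl9, Cnn1 and Tagln. The cause of these turns was not tested.

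With the replicate letter as a replicate block, without KO F, Cnn1 was at 0.15 and Tpm1 at 0.017, and Myh11 (1.07, unadjusted p = 0.044) took the place of Actg2 (-0.69, unadjusted p = 0.13). The letters mark different animals and did not pair the tumors, since the correlation of deviations from the group means ran from -0.17 to 0.16 over the letters.

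Over all genes, the number past the adjusted threshold was 3 in the edgeR test, 1489 by DESeq2 and 0 to 1856 when 1 tumor was left out (854 without WT D, 1856 without WT E, 32 without KO F and 0 without any of the other 8). It was 97 with the exon length offset, 46 on the deposited values, 45 without a filter, 8 with the replicate block and 0 with the stricter filter, with either covariate or without WT A and WT B.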
